A study of Mus musculus with 18 samples.

Results

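Integrins are the surface receptors through which cells hold the extracellular matrix. The 10 genes described here encode integrin subunits of epithelial and tumor cells: the 5 alpha subunits Itga2, Itga3, Itga5, Itga6 and Itgav and the 5 beta subunits Itgb1, Itgb3, Itgb4, Itgb5 and Itgb6. They were listed by symbol, with earlier results of these data known, and each matched 1 of the 54752 gene rows of the count table. RNA was sequenced from 18 mouse samples, 3 in each of 6 groups. Intradermal HM-1 tumors grew from Cd276KO or control cells, and ID8 and HM-1 cells in culture were each sampled as Cd276KO and control. The label Cd276KO marks loss of Cd276, which encodes the B7 family checkpoint protein B7-H3.

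HM-1 is a mouse ovarian cancer line and carries the strain label B6C3F1, and ID8 is a line from mouse ovarian surface epithelium with the strain label C57BL6. HM-1 cells were grown in MEM alpha and ID8 cells in an RPMI medium, so line, strain and medium cannot be told apart between the lines. Tumors came from 1000000 HM-1 cells placed in the skin of B6C3F1 mice and were taken on day 10. The guide, the number of clones, the nature of the control cells and the age and sex of the mice are in none of the sources used. The samples are labelled as biological replicates, but nothing states whether they came from separate cultures or clones, and p-values then measure only the spread between these samples.

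An integrin is a pair of 1 alpha and 1 beta chain, and the pairing sets which matrix protein it binds. Itgb1 is the common beta chain and pairs with Itga2 (collagen), Itga3 and Itga6 (laminins), Itga5 (fibronectin) and Itgav. Itgb4 pairs with Itga6 alone and links laminin in the basement membrane to keratin filaments in hemidesmosomes. Itgav also pairs with Itgb3, Itgb5 and Itgb6, which bind the RGD tripeptide in fibronectin, vitronectin and osteopontin. Itgb6 and Itgb8, each with Itgav, release active TGF-beta from its latent complex. In ovarian cancer, integrins are known for the attachment of tumor cells to the mesothelium and matrix of the peritoneal cavity.

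Total counts ran from 17349082 to 30959773 per library. Expression is given as CPM, a gene's reads for every 1000000 reads counted in its library, and differences were tested with edgeR's quasi-likelihood test, where a call is a Benjamini-Hochberg adjusted p under 0.05 over all genes tested. Cd276 itself was lower in HM-1 Cd276KO cultures, at 46.6 ± 1.53 CPM against 86.4 ± 10.6 CPM in controls (SD, n = 3 each; log2 fold change −0.85, adjusted p 0.00146). It did not pass the test in the ID8 libraries labelled Cd276KO, at 19.4 ± 1.45 CPM against 20.9 ± 0.299 CPM in controls (log2 fold change −0.04, SE 0.08, adjusted p 0.692). Nor did it pass in the tumors labelled Cd276KO, at 86.6 ± 12.3 CPM against 122 ± 18.1 CPM in control tumors (log2 fold change −0.45, adjusted p 0.105). A gene-level count does not show whether a deletion was made, so the groups are named by their labels throughout, and each direction below is that of the label. HM-1 control culture 1 stood apart from controls 2 and 3, with a chi-square of 65.0 and 63.9 per gene against 1.57 between those. Control tumor 3 stood apart from control tumors 1 and 2, at 134 and 81.3 against 41.1. Where leaving out either library gains or loses a call, or clearly moves a difference that the text describes, the value without it is given.

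In the cultures the summed level of 6 endothelial markers was at most 4.52 CPM, and that of 5 T cell markers at most 0.309 CPM. Markers of other lists had enough counts to test in cultures. These were 3 of 5 platelet, 2 of 5 fibroblast and 1 of 5 neutrophil markers in HM-1, and 4 of 6 keratinocyte markers in ID8, among others. Such markers are not of host cells alone. Both lines carried Krt8, Krt18 and Krt19 as epithelial cells do, while Epcam was at 0 in all 6 HM-1 cultures and under 1 CPM in ID8. Tumors held host cells in varying amount. The 5 fibroblast markers summed to 2578, 3517 and 3423 CPM in Cd276KO tumors and to 7046, 2325 and 124 CPM in control tumors. The 6 endothelial markers gave 136, 216 and 171 CPM in Cd276KO tumors and 283, 165 and 71.3 CPM in control tumors. The 6 keratinocyte markers gave 7.90, 7.15 and 8.76 CPM in Cd276KO tumors and 7.32, 7.17 and 214 CPM in control tumors, so control tumor 3 alone was rich in them. Striated muscle markers gave 88.5, 697 and 661 CPM in Cd276KO tumors and 122, 1.64 and 2.14 CPM in control tumors. Endothelial cells, fibroblasts, keratinocytes and platelets all carry integrins of this list, and their part in the tumor values was not tested. In such bulk tissue, fewer cells of a type and less RNA per cell cannot be told apart.

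The start regions of Itga5, Itgb1 and Itgb5 are shown because their knockout effect differed between the 2 cell lines and RefSeq gave a window for them. Windows of 250 bases before to 50 after the gene start, from RefSeq on GRCm38.p6, matched 7 of the 10 genes, and Itga6, Itgb3 and Itgb4 had no entry. Each is written 5′ to 3′ on the gene's strand: Itga5 at chr15:103366742-103367041 on the minus strand, Itgb1 at chr8:128685404-128685703 on the plus strand and Itgb5 at chr16:33829415-33829714 on the plus strand. Capitals mark matches, on either strand, to the GC box GGGCGG, the ETS core CCGGAA or the TEAD motif GGAATG.
Itga5: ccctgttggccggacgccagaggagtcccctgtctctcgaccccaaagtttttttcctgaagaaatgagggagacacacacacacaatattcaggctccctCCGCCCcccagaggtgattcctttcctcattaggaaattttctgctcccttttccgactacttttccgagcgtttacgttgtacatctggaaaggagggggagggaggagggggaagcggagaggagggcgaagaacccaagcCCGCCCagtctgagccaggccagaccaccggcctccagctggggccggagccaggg
Itgb1: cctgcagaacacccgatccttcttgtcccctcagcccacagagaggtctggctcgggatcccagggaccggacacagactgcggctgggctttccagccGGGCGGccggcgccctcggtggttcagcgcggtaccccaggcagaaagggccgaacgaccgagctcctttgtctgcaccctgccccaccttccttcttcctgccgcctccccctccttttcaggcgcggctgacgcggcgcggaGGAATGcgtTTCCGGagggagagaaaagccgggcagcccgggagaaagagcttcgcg
Itgb5: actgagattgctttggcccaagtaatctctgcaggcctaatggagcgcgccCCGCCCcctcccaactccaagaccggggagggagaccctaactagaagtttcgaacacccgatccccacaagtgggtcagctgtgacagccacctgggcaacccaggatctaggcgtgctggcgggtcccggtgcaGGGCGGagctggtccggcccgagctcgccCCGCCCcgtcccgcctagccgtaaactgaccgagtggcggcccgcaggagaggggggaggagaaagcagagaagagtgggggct
Itga5 held 2 GC box matches and Itgb5 held 3, with no match to the others. Itgb1 held 1 GC box, 1 ETS core and 1 TEAD match. No window of these 3 held the AP-1 motif TGANTCA, the E-box CACGTG or the TATA box TATAAA. Of all 32851 windows of this length, 35.7% held a GC box, 14.9% an ETS core, 14.7% a TEAD match, 7.8% an AP-1 match, 7.2% an E-box and 13.6% a TATA box. A GC box was present in 6 of the 7 matched windows. These matches describe letters in a window and are not sites of binding.

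Among the 5 listed alpha chains, the laminin receptor gene Itga3 had the most RNA per length, and among the 5 listed beta chains Itgb1. To compare genes with each other, the mean CPM was divided by the total length of a gene's annotated exons in kilobases. On this scale Itga3 made up 44.0% and 42.5% of the summed level of the 5 alpha genes in Cd276KO and control tumors. Its share was 64.7% and 58.3% in Cd276KO and control ID8 cultures, and 60.5% and 59.3% in Cd276KO and control HM-1 cultures. Itga6, the other laminin receptor chain, came next in HM-1, at 42.6% and 37.0% in Cd276KO and control tumors and 32.2% and 32.9% in Cd276KO and control cultures. In ID8 its share was 11.3% in Cd276KO and 8.56% in control cultures. The fibronectin receptor chain Itga5 was second in ID8 controls. Its level per kilobase was 22.7 CPM in ID8 Cd276KO cultures and 44.6 CPM in ID8 control cultures, where it held 23.1% of the sum. By coding length alone, Itga6 rather than Itga3 ranked first in the tumors, at 52.8% against 33.8% for Itga3 in Cd276KO tumors and 47.2% against 33.5% in control tumors.

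Itgb1 made up 70.1% and 72.3% of the summed beta level per exon length in Cd276KO and control tumors. Its share was 84.1% and 75.6% in Cd276KO and control ID8 cultures and 74.1% and 69.9% in Cd276KO and control HM-1 cultures. Itgb5, the second beta chain in all groups, had 11.0% in ID8 Cd276KO and 19.3% in ID8 control cultures, and 12.6% to 16.3% in the 4 HM-1 groups. Itgb4, the hemidesmosome chain, had 7.43% in HM-1 Cd276KO cultures and 12.4% in HM-1 control cultures, but 0.727% and 0.169% in Cd276KO and control ID8 cultures. Itgb3 had 3.94% to 5.83% in the 6 groups. Beta chains outside the list are not in these shares. In Cd276KO and control HM-1 cultures Itgb5 had 31.3 and 26.1 CPM per kilobase. There Itgb2 had 83.7 and 30.7, and Itgb7 25.1 and 50.7. In Cd276KO and control tumors Itgb5 had 56.7 and 47.2, Itgb2 52.3 and 53.1, and Itgb7 7.75 and 47.2. Both were under 1 CPM per kilobase in ID8. Itgb6 was close to the limit of detection everywhere: the 3 libraries of a group together held 54 and 41 counts in Cd276KO and control tumors, 4 and 3 in Cd276KO and control ID8 cultures, and 19 and 28 in Cd276KO and control HM-1 cultures.

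**Figure D1:**
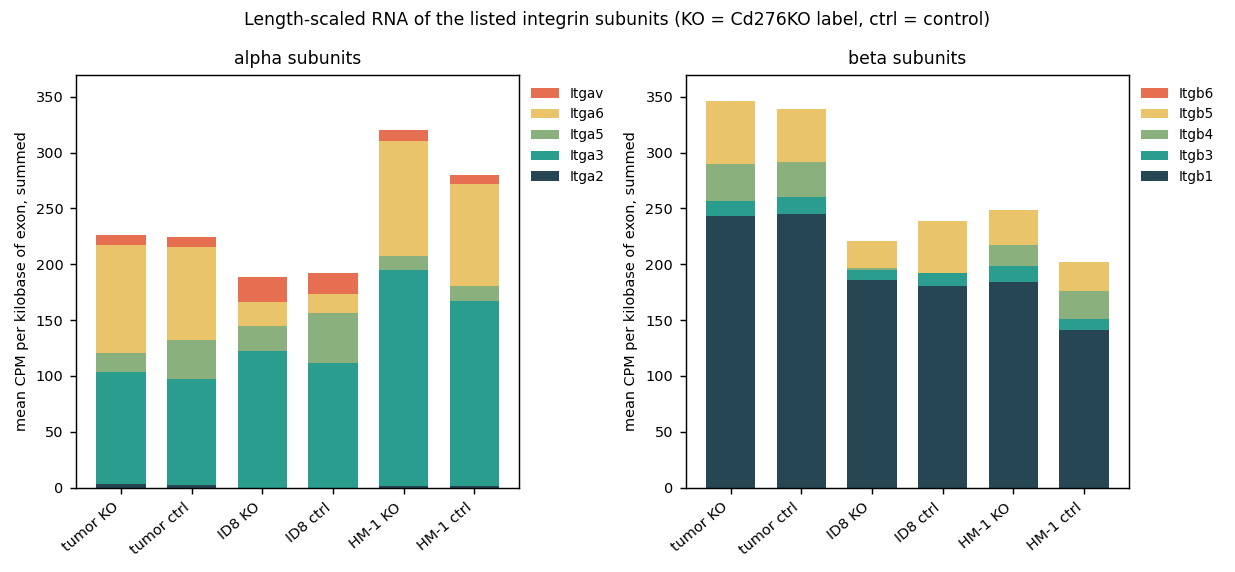
Mean CPM per kilobase of annotated exon of the 5 alpha genes (left) and 5 beta genes (right), stacked, in the 6 groups of 3 libraries. Itga3 and Itgb1 form the largest blocks, Itga6 is thin in ID8, and the Itga5 block is thinner in Cd276KO than in control libraries of ID8 and of the tumors.

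The genes lie on 6 chromosomes of GRCm38, in the GENCODE M21 annotation. Itga6 (71745616 to 71858416, plus strand), Itgav (83724397 to 83806916, plus strand) and Itgb6 (60598292 to 60722643, minus strand) are on chromosome 2, and Itga3 (95044474 to 95076801, minus strand), Itgb3 (104608000 to 104670476, plus strand) and Itgb4 (115974709 to 116008412, plus strand) on chromosome 11. Itga2 is on chromosome 13 (114833081 to 114932100, minus strand) and Itga5 on chromosome 15 (103344286 to 103366763, minus strand). Itgb1 is on chromosome 8 (128685654 to 128733200, plus strand) and Itgb5 on chromosome 16 (33829665 to 33949338, plus strand). All 10 are protein-coding, and the values are counts over the whole gene, so splice forms such as those of Itga6 or Itgb1 are not separated. No source used here gives the strand setting of the counting. Of the genes that overlap a listed one, B230344G16Rik, a lincRNA opposite to Itgb4, had the most reads, with 163 in all 18 libraries together. Itgb4 had 237 to 14229 reads in each group.

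In HM-1 cultures, Cd276KO cells had more RNA of 3 beta chains, Itgb1, Itgb3 and Itgb5, by 1.24 to 1.54 times. Itgb6 was too low to test. Of the 9 genes tested, 3 were higher and 0 lower, where 27.7% of all 12457 genes tested were called, 11.6% as higher and 16.1% as lower, so the share of members called was near the background. No member was lower at an unadjusted p under 0.05 or with DESeq2, and limma voom with quality weights called 2 lower. The median log2 fold change over the tested members was 0.27, beside −0.01 over all genes. The 5 alpha chains did not pass the test. The values of 5 of the 9 tested members did not overlap between the groups, beside 53.0% of all genes.

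Itgb1 had 773, 719 and 758 CPM in Cd276KO cultures and 528, 598 and 599 CPM in controls. The groups did not overlap, and the difference was 0.42 on the log2 scale (SE 0.08, adjusted p 0.00898). Without Cd276KO culture 1 or 3 the call was lost, at adjusted p 0.0544 and 0.0538, with a log2 fold change of 0.41 in both. Itgb3, the RGD-binding partner of Itgav that also marks endothelium and platelets, had 86.6, 85.2 and 84.5 CPM in Cd276KO cultures and 47.5, 62.1 and 61.4 CPM in controls. All Cd276KO values lay above all controls, by 0.62 (SE 0.11, adjusted p 0.00696). Itgb5, the vitronectin receptor chain, had 107, 115 and 111 CPM in Cd276KO cultures and 89.8, 96.6 and 91.3 CPM in controls. That narrow gap was 0.31 (SE 0.07, adjusted p 0.0217), and the call was lost when any library other than control 1 was left out (adjusted p 0.0514 to 0.0998), with no filter on low counts (0.112) and with all 18 libraries in 1 fit (0.245).

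HM-1 control 1 decided several of the other genes. Itgb4 had 117, 138 and 133 CPM in Cd276KO cultures and 124, 204 and 199 CPM in controls, and Itga2, the collagen receptor chain, had 7.11, 7.27 and 7.53 CPM in Cd276KO cultures and 5.73 CPM in control 1, 12.8 CPM in control 3 and 10.2 ± 3.86 CPM over the 3 controls. Control 1 thus fell within or below the Cd276KO values, while controls 2 and 3 lay above them. With all libraries the log2 fold changes were −0.40 for Itgb4 (SE 0.19, adjusted p 0.156) and −0.44 for Itga2 (SE 0.27, adjusted p 0.267). Without control 1 they were −0.59 (adjusted p 2.13e-10) and −0.71 (adjusted p 1.32e-07), and both were called lower.

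Itga3 had 1059, 1171 and 1090.0 CPM in Cd276KO cultures and 758, 1052 and 1035 CPM in controls, and Itgav 107, 102 and 100.1 CPM in Cd276KO cultures and 60.8, 93.8 and 91.4 CPM in controls. Control 1 was the lowest control of both genes. The log2 fold changes of 0.27 for Itga3 (adjusted p 0.173) and 0.37 for Itgav (adjusted p 0.124) became smaller without control 1, at 0.14 and 0.21, but passed the test there (adjusted p 0.00274 and 7.43e-05). Itga6 had 961, 923 and 911 CPM in Cd276KO cultures and 595, 929 and 967 CPM in controls (log2 fold change 0.21, SE 0.17, adjusted p 0.399). Without control 1 it was 0.03 (SE 0.04, adjusted p 0.550), and limma voom gave 0.03 as well. Itga5 had 60.7, 65.2 and 60.7 CPM in Cd276KO cultures and 52.3, 71.0 and 66.2 CPM in controls, which overlapped (0.02, SE 0.12, adjusted p 0.920, and −0.09 without control 1). The number of all genes called was 3452 with this library and 7491 without it.

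**Figure D2:**
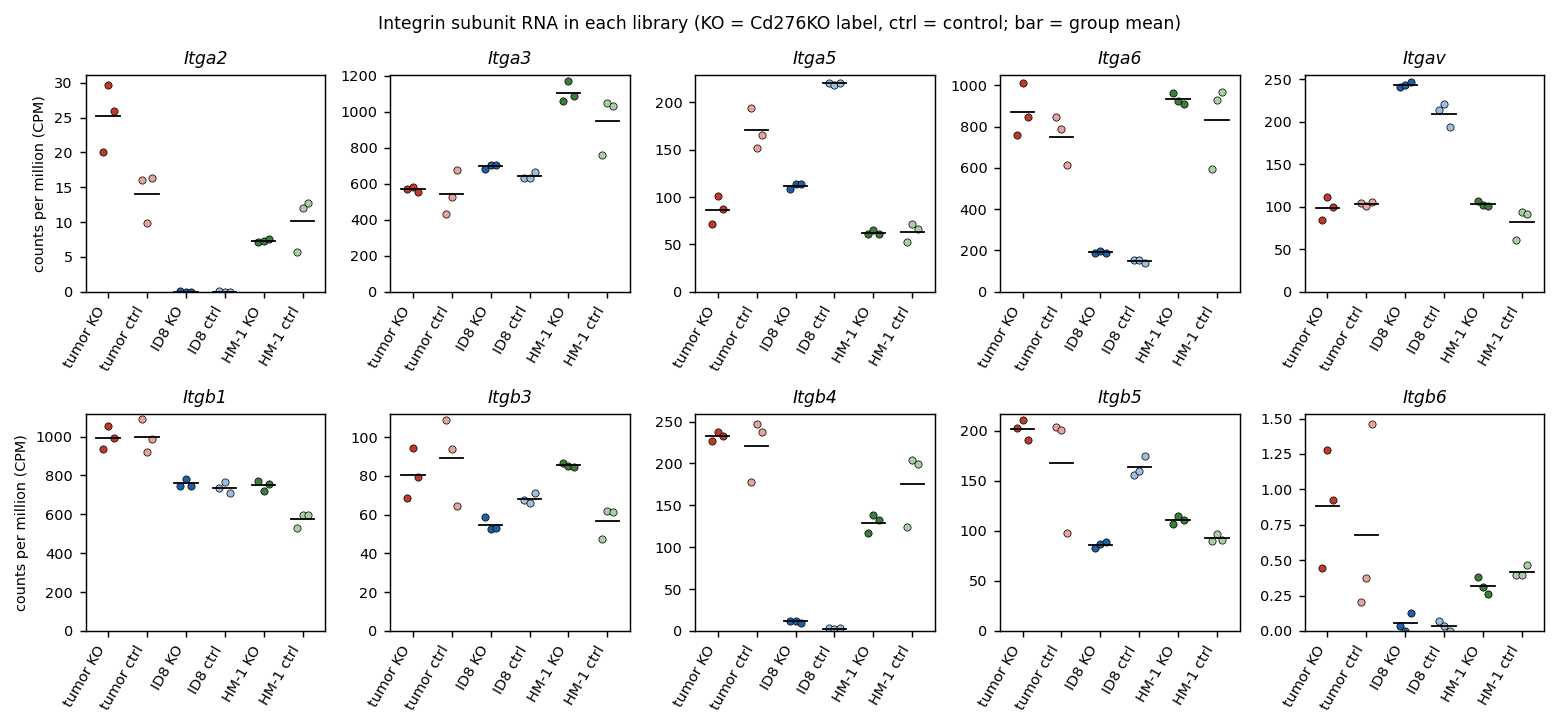
CPM of each of the 10 genes in each of the 18 libraries, by group, with the group mean as a bar; each panel has its own axis from 0. Itga5 is lower in Cd276KO than in control libraries in tumors and in ID8 but not in HM-1 cultures, and Itga2, Itga6 and Itgb4 are low in ID8.

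In ID8 cultures, members moved both ways: Cd276KO cells had 1.87 times less Itga5 and 1.80 times less Itgb5, and 4.24 times more Itgb4, with smaller rises of Itga3, Itga6 and Itgav and a small fall of Itgb3. Of the 8 genes tested, 4 were higher and 3 lower. This stands beside 60.7% of 12932 genes called, 29.4% higher and 31.3% lower, so most genes of any kind were called in this comparison. Values did not overlap between the groups for 7 of the 8, beside 64.3% of all genes. Cd276 itself did not pass the test in these libraries, as given above. Itga2, with 1 count in each ID8 group, and Itgb6, with 4 counts in Cd276KO and 3 in control cultures, were too low to test.

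Itga5, whose product with that of Itgb1 is the main fibronectin receptor, had 108, 114 and 114 CPM in Cd276KO cultures and 221, 218 and 221 CPM in controls. Both groups were tight and far apart, and differed by −0.90 on the log2 scale (SE 0.06, adjusted p 2.19e-12). Itgb5 had 82.5, 86.9 and 89.1 CPM in Cd276KO cultures and 156, 160.2 and 175 CPM in controls (−0.85, SE 0.06, adjusted p 3.57e-11). Its partner Itgav went the other way, with 241, 243 and 246 CPM in Cd276KO cultures and 214, 221 and 193 CPM in controls (0.29, SE 0.06, adjusted p 0.000117). Itgb3, another partner of Itgav, had 58.6, 52.5 and 52.9 CPM in Cd276KO cultures and 67.6, 65.8 and 71.2 CPM in controls (−0.24, SE 0.06, adjusted p 0.00223).

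The laminin receptor genes Itgb4, Itga6 and Itga3 were called higher in ID8 Cd276KO cultures, as was Itgav, and Itgb1 was not called. Itgb4 had 12.3, 11.5 and 9.96 CPM in Cd276KO cultures and 3.39, 2.20 and 2.89 CPM in controls, a difference of 2.08 on the log2 scale (SE 0.14, adjusted p 1.65e-11). Even so its level stayed under that of every HM-1 library, the lowest of which had 117 CPM. Its partner Itga6 had 188, 199 and 188 CPM in Cd276KO cultures and 154, 153 and 141 CPM in controls (0.44, SE 0.06, adjusted p 5.25e-07). Itga3 had 684, 702 and 703 CPM in Cd276KO cultures and 629.9, 630.0 and 667 CPM in controls (0.19, SE 0.06, adjusted p 0.00584). Itgb1 had 747, 784 and 746 CPM in Cd276KO cultures and 734, 766 and 708 CPM in controls, which overlapped (0.12, SE 0.06, adjusted p 0.0714), and DESeq2 and limma voom called it higher (adjusted p 0.0242 and 0.0160). The calls of Itga3, Itgav and Itgb3 were lost when all 18 libraries shared 1 spread (adjusted p 0.347, 0.0623 and 0.229), and those of Itga5, Itga6, Itgb4 and Itgb5 were not lost under any alternative.

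The Cd276KO effect on 5 of the 8 genes with enough counts in both lines differed between ID8 and HM-1 cultures, by a test of the difference itself. Of all genes tested, 40.4% differed, 19.8% higher and 20.7% lower. Itga2 was tested too (0.57, SE 2.51), but it passed the filter on low counts only through HM-1. With 1 count in each ID8 group it could hardly be called and is not counted here. For Itgb5 the effect was lower in ID8 by 1.17 on the log2 scale (−1.17, SE 0.10, adjusted p 1.51e-06): it was called lower in ID8 and higher in HM-1. Itgb3 likewise went in opposite directions, with a difference of −0.88 (SE 0.13, adjusted p 0.000169). Itga5, which passed in ID8 only, differed by −0.93 (SE 0.13, adjusted p 9.84e-05). Itgb4 differed by 2.47 (SE 0.27, adjusted p 1.26e-05), higher in ID8, where the gene is scarce. Itgb1 differed by −0.31 (SE 0.09, adjusted p 0.0175), a call lost with no filter (0.0569) and with all 18 libraries in 1 fit (0.0574). Itga3 and Itgav had differences of −0.08 each (SE 0.14 and 0.17), and Itga6 one of 0.22 (SE 0.19, adjusted p 0.375). For Itga6 this became 0.41 and was called without HM-1 control 1 (adjusted p 1.46e-05).

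**Figure D3:**
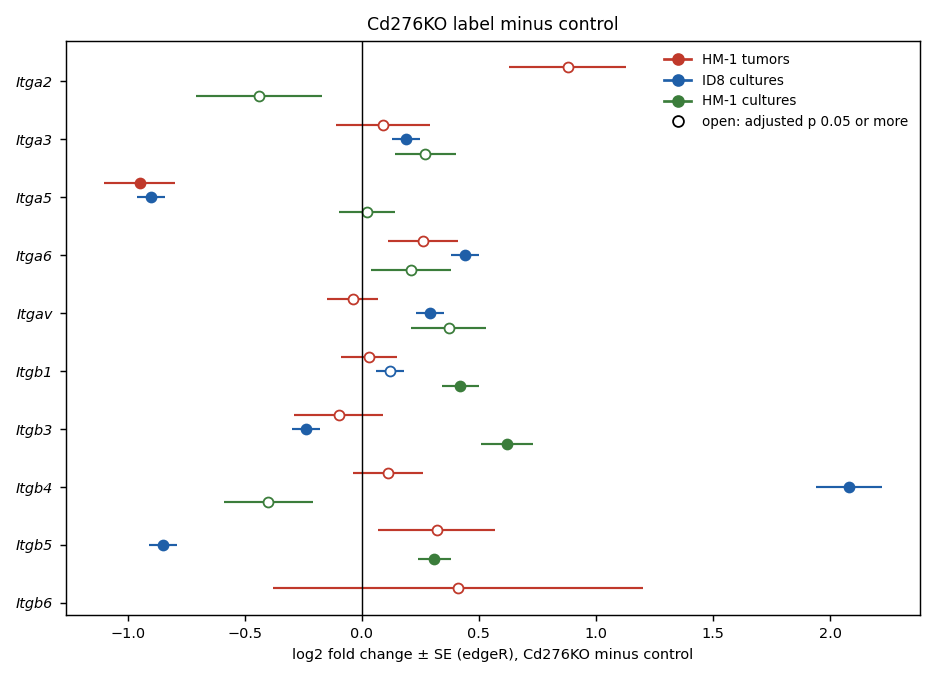
Log2 fold change, Cd276KO label minus control, with its SE, of each gene in HM-1 tumors, ID8 cultures and HM-1 cultures (3 against 3 libraries each); filled points passed the adjusted p threshold. Itga5 is left of 0 in tumors and in ID8 and at 0 in HM-1 cultures, Itgb3 and Itgb5 lie on opposite sides of 0 in the 2 lines, and Itgb4 in ID8 lies farthest to the right.

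In HM-1 tumors, Itga5 was the 1 gene called, and it was lower in Cd276KO tumors. Its level was 71.0, 101 and 87.6 CPM in Cd276KO tumors and 194, 152 and 166 CPM in control tumors, which did not overlap. The log2 fold change was −0.95 (SE 0.15, adjusted p 0.0278), a fold of 1.93. This 1 of 10 tested stands beside 5.38% of 15345 genes called, 2.20% higher and 3.18% lower. The groups did not overlap for 2 of the 10, Itga2 and Itga5, beside 34.8% of all genes. No member was called higher by edgeR, 1 was at an unadjusted p under 0.05, and DESeq2 and limma voom each called 1 higher, which was Itga2.

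The Itga5 call in tumors was marginal. Leaving out control tumor 1 or any Cd276KO tumor gave log2 fold changes of −0.87, −0.84, −1.05 and −0.93 with adjusted p of 0.0548, 0.112, 0.0848 and 0.157, so the size held and the call was lost. The effect on Itga5 was lower in tumors than in HM-1 cultures by 0.97 on the log2 scale (−0.97, SE 0.21, adjusted p 0.0354), where 2.84% of all genes differed, 1.72% higher and 1.12% lower. That call was lost without control culture 3, any Cd276KO culture, control tumor 1 or Cd276KO tumor 3 (adjusted p 0.0528 to 0.111), at log2 differences of −0.83 to −0.99. With all 12 libraries Itga5 was the 1 member called in this test. Itgb3 had a difference of −0.73 (SE 0.26, adjusted p 0.204), and one of −0.92 (SE 0.19, adjusted p 0.0202) without control tumor 3, where it was called lower. For Itgb5 the difference was −0.01 (SE 0.31), and −0.28 (SE 0.11, adjusted p 0.171) without control tumor 3.

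Itga2 had 20.1, 29.7 and 26.0 CPM in Cd276KO tumors and 16.0, 9.85 and 16.3 CPM in control tumors. The Cd276KO tumors were the higher ones, and the log2 fold change of 0.88 (SE 0.25) had an adjusted p of 0.0875. DESeq2 (0.0142), limma voom (0.00814), the fit over all 18 libraries (0.0284) and the fit without control tumor 3 (0.0410) called it higher. Its effect in tumors against that in cultures differed by 1.32 (SE 0.40, adjusted p 0.129), and by 1.58 without HM-1 control culture 1, where it was called (adjusted p 0.0210).

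The other 8 genes did not pass the test, and their values overlapped between the kinds of tumor. Itgb1, at 935, 1052 and 990.4 CPM in Cd276KO tumors and 1089, 922 and 986 CPM in control tumors, and Itgav, at 83.7, 111 and 99.4 CPM in Cd276KO tumors and 104, 101 and 105 CPM in control tumors, had log2 fold changes of 0.03 (SE 0.12) and −0.04 (SE 0.11). Itgb5 had 203, 210.5 and 191 CPM in Cd276KO tumors and 204, 201 and 98.0 CPM in control tumors, and Itgb3 68.4, 94.3 and 79.4 CPM in Cd276KO tumors and 109, 93.7 and 64.4 CPM in control tumors. Control tumor 3, with few fibroblast and endothelial markers and many keratinocyte markers, was the lowest for both genes. The log2 fold change of Itgb5 was 0.32 (SE 0.25), and 0.07 (SE 0.10) without control tumor 3. That of Itgb3 was −0.10 (SE 0.19), and −0.25 (SE 0.13) without it. The laminin receptor genes Itga3, Itga6 and Itgb4 had log2 fold changes of 0.09, 0.26 and 0.11, which were 0.33, 0.17 and 0.21 without control tumor 3. Itgb6 had 0.41 with an SE of 0.79, and 1.69 without that tumor. None of these was called without it, at adjusted p of 0.113 or more. Of these 8 genes, the lowest adjusted p with all 6 tumors was 0.338, for Itga6, which does not show that the levels were alike.

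Against HM-1 cultures of the same label, tumors had more Itga5 and Itgb1 and less Itga3, in both the Cd276KO and the control samples. In Cd276KO tumors against Cd276KO cultures 7 of 9 tested genes were called, 5 higher and 2 lower, where 75.7% of 14330 genes were called, 41.2% higher and 34.5% lower. In control tumors against control cultures 3 of 9 were called, 2 higher and 1 lower, where 41.8% of 14609 genes were called, 25.3% higher and 16.6% lower. Values of 6 of the 9 did not overlap in the Cd276KO samples, beside 78.8% of all genes, and of 6 of the 9 in the control samples, beside 55.8%. A tumor holds host cells beside the cells injected, so these differences hold host RNA as well as tumor cell RNA, and the part of each was not tested.

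Itga5 averaged 86.7 ± 15.2 CPM in Cd276KO tumors and 62.2 ± 2.60 CPM in Cd276KO cultures (SD, n = 3 each), a difference of 0.34 on the log2 scale (SE 0.10, adjusted p 0.0128). This call was lost without any 1 Cd276KO culture (adjusted p 0.0597 to 0.102) and without Cd276KO tumor 3 (0.0607). It averaged 171 ± 21.6 CPM in control tumors and 63.2 ± 9.74 CPM in control cultures, which was 1.30 (SE 0.16, adjusted p 0.00115). Itgb1 averaged 992 ± 58.2 CPM in Cd276KO tumors and 750.0 ± 28.2 CPM in Cd276KO cultures (0.27, SE 0.07, adjusted p 0.00712). That call was lost with no filter on low counts (0.0955), without Cd276KO culture 2 (0.0690) and without culture 3 (0.0542). It averaged 999 ± 84.5 CPM in control tumors and 575 ± 40.4 CPM in control cultures (0.66, SE 0.14, adjusted p 0.00787), and this call too was lost with no filter (0.0516).

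Itga3 was the gene that was lower in tumors in both the Cd276KO and the control samples. It averaged 569.7 ± 15.5 CPM in Cd276KO tumors and 1107 ± 57.9 CPM in Cd276KO cultures (−1.09, SE 0.08, adjusted p 3.15e-06), and 545 ± 123 CPM in control tumors and 948 ± 165 CPM in control cultures (−0.93, SE 0.21, adjusted p 0.0119). Itga6, which binds laminin as well, had log2 fold changes of −0.23 (SE 0.10, adjusted p 0.0511) in Cd276KO and −0.28 (SE 0.20, adjusted p 0.307) in control samples. DESeq2, limma voom and the fit with no filter called it lower in the Cd276KO samples (adjusted p 0.0116, 0.000243 and 0.000663).

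In the Cd276KO samples, Itga2 was 3.15 times higher in tumors (1.65, SE 0.13, adjusted p 5.89e-06), Itgb4 1.64 times (0.72, SE 0.07, adjusted p 2.07e-05) and Itgb5 1.65 times (0.72, SE 0.06, adjusted p 1.03e-05). In the control samples the log2 fold changes of Itga2 (0.34) and Itgb4 (0.20) did not pass, with adjusted p of 0.456 and 0.484, and were 0.06 and 0.01 without control culture 1. There Itgb5 had 0.71 (SE 0.26, adjusted p 0.0669) and Itgb3 0.50 (SE 0.20, adjusted p 0.0846), and both were called higher without control tumor 3, at 0.95 (adjusted p 0.00124) and 0.66 (adjusted p 0.0123). Itgb3 in the Cd276KO samples had −0.21 (SE 0.09, adjusted p 0.0571). Itgav had −0.20 (SE 0.08, adjusted p 0.0482) in Cd276KO and 0.20 (SE 0.16, adjusted p 0.360) in control samples. The call in the Cd276KO samples was lost with relative log expression size factors (0.0799), upper-quartile scaling (−0.04, adjusted p 0.713), all 18 libraries in 1 fit (0.105) and the omission of any 1 Cd276KO culture or of Cd276KO tumor 1 or 3 (0.0509 to 0.153). Upper-quartile scaling moved the median of all genes by 0.17 in the Cd276KO and 0.14 in the control samples, and in the control samples 71.0% of calls were then higher, against 60.4%.

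**Figure D4:**
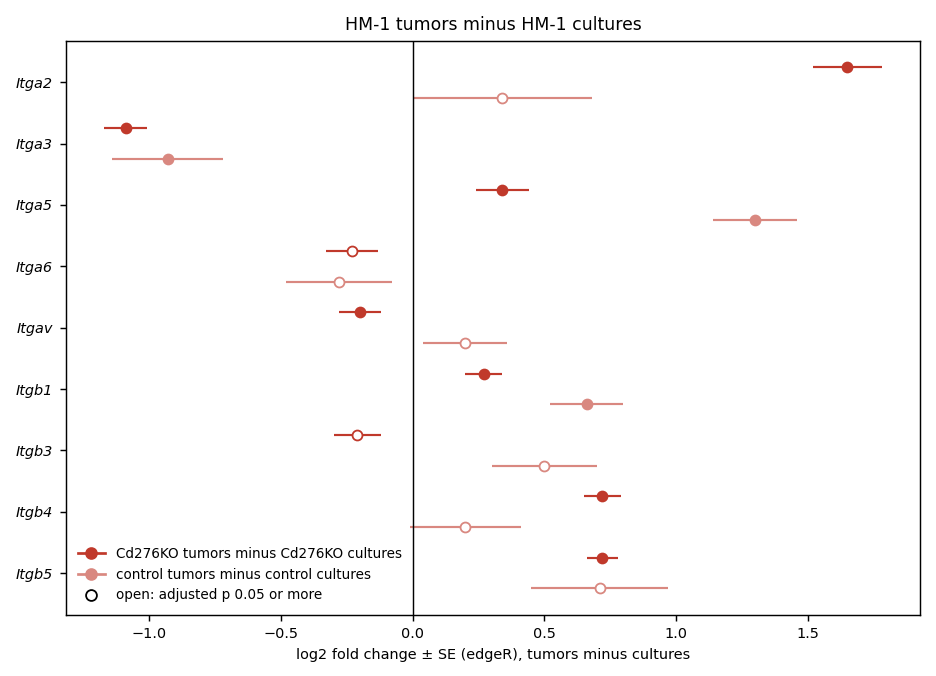
Log2 fold change, tumors minus cultures, with its SE, of 9 genes in Cd276KO samples and in control samples (3 against 3 libraries each); filled points passed the adjusted p threshold. Itga3 lies left of 0 under both labels, and Itga5 and Itgb1 lie right of 0 under both. The Itga5 point of the control samples lies farther right than that of the Cd276KO samples.

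ID8 and HM-1 controls differed in most of the 8 genes that both lines express well enough to test. ID8 controls had 3.39 times more Itga5, 2.48 times more Itgav, 1.72 times more Itgb5 and 1.24 times more Itgb1 than HM-1 controls, and little or none of the collagen and hemidesmosome chains. Of these 8 genes, 4 were higher and 3 lower, where 58.3% of all genes were called, 28.8% higher and 29.6% lower. The groups did not overlap for any of the 8, beside 67.2% of all genes. Itga2 and Itgb6 passed the filter on low counts only through HM-1, which fixes their direction, so they are described by their counts and not counted here. Itga5 averaged 220.0 ± 1.52 CPM in ID8 controls and 63.2 ± 9.74 CPM in HM-1 controls (1.76, SE 0.12, adjusted p 5.58e-06). Itgav averaged 209 ± 14.3 CPM in ID8 controls and 82.0 ± 18.4 CPM in HM-1 controls (1.31, SE 0.16, adjusted p 0.000188). For Itgb5 the difference was 0.78 (SE 0.09, adjusted p 0.000142) and for Itgb1 0.32 (SE 0.09, adjusted p 0.0141), the second of which was lost without ID8 control 1 or 2 (0.0514 and 0.0585).

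The laminin receptor genes were lower in ID8. Itga6 averaged 149 ± 6.98 CPM in ID8 controls and 831 ± 205 CPM in HM-1 controls (−2.51, SE 0.18, adjusted p 7.97e-06). Itgb4 averaged 2.82 ± 0.597 CPM in ID8 controls and 175 ± 45.0 CPM in HM-1 controls (−6.00, SE 0.26, adjusted p 5.16e-07). Itga3, the most abundant listed alpha chain in both lines, was closer, at 642 ± 21.4 CPM in ID8 controls and 948 ± 165 CPM in HM-1 controls (−0.60, SE 0.13, adjusted p 0.00460). For the collagen receptor chain Itga2, 1 read was counted in the 3 ID8 controls and 707 in the 3 HM-1 controls, a ratio of HM-1 to ID8 of 899 (95% exact interval 161 to 35556). Itgb6 had 3 reads in ID8 controls and 28 in HM-1 controls, a ratio of HM-1 to ID8 of 11.9 (95% exact interval 3.67 to 61.0). These intervals cover counting error only. Itgb3 averaged 68.2 ± 2.73 CPM in ID8 controls and 57.0 ± 8.22 CPM in HM-1 controls and did not pass the test (0.22, SE 0.11, adjusted p 0.137).

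Across the 6 groups, the chains fell into different orders. Itga5 was highest in ID8 controls, then in control tumors, ID8 Cd276KO cultures and Cd276KO tumors, with both HM-1 cultures lowest, and the values of the last 3 overlapped from one to the next. Itgav was highest in the 2 ID8 groups, and the 4 HM-1 groups overlapped from one to the next. Itga6 was highest in the 4 HM-1 groups, which overlapped, and low in ID8. Itgb4 followed that order at a wider range, with both tumor groups above the HM-1 cultures by their means but with values that overlapped between neighbours. Itgb1 was highest in tumors and lowest in HM-1 controls, with the 2 ID8 groups and the HM-1 Cd276KO cultures overlapping between them. For Itgb3, 4 of the 5 neighbouring pairs of groups overlapped.

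The likeness of 2 patterns was measured as the root mean square difference of log2(CPM + 1), each gene centred on its own mean over the 18 libraries, and 10365 other protein-coding genes averaging 5 CPM or more were searched. The genes nearest to Itga5 were Rnf19b and Fosl2, at 0.23 each, where Itga5 itself varied with an SD of 0.69. Nearest to Itgb5 were Wdfy1 (0.16) and Pnpla8 (0.18), to Itgb1 Tpm4 and Ubp1 (0.12 each), to Itgb3 Sppl2a (0.14) and Susd6 (0.16) and to Itgav Ano6 (0.16) and Phactr4 (0.18). Itga6 was nearest to Il12rb1 (0.18) and Pip5k1c (0.20), and Itga3 to Smyd5 (0.18) and Ddx24 (0.19). Itgb4 was nearest to Sh3bgrl2 (0.35) and Pear1 (0.36), and Itga2 to Dock9 (0.34) and Prdm11 (0.36), both against a wide spread of their own (SD 2.32 and 1.85). Among the listed genes, Itgb1 and Itgb3 were the closest pair, at 0.25, while Itga6 and Itgb4, which form 1 receptor, were 1.28 apart. A small difference is easier to reach for a gene that varies little, and the 18 libraries share their groups.

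The other integrin subunits, 16 genes chiefly of leukocytes, platelets, muscle and mesenchyme, were counted in the same way. In HM-1 cultures 8 were tested, 2 higher and 4 lower, with a median log2 fold change of −0.74. Of all genes, 11.6% were higher and 16.1% lower. Itgb2, the beta chain of leukocyte integrins, had 256, 256 and 255 CPM in Cd276KO cultures and 80.7, 98.8 and 101 CPM in controls (1.49, SE 0.10, adjusted p 0.000129). Itgb7, a lymphocyte beta chain, had 64.5, 74.5 and 69.8 CPM in Cd276KO cultures and 137, 145 and 139 CPM in controls (−0.97, SE 0.08, adjusted p 0.000355). Both are well above background in cultures where T cell markers are near 0. Itgal, Itgam and Itgax, leukocyte alpha partners of Itgb2, were too low there to test. In tumors Itgb7 had 18.9, 22.9 and 22.5 CPM in Cd276KO tumors and 111, 98.9 and 182 CPM in control tumors (−2.58, SE 0.28, adjusted p 0.0192), and Itgam, a myeloid alpha chain, 5.79, 10.4 and 10.3 CPM in Cd276KO tumors and 32.0, 21.7 and 48.3 CPM in control tumors (−1.93, SE 0.37, adjusted p 0.0385). These 2 were called lower of 15 tested in tumors and 0 higher, with 0 higher at an unadjusted p under 0.05 and by DESeq2 or limma voom. Over all genes the shares in tumors were 3.18% lower and 2.20% higher. The 5 neutrophil markers had a summed level of 7.54 CPM in the lowest Cd276KO tumor and 26.3, 27.9 and 115 CPM in control tumors, all above the 3 Cd276KO tumors, and the 5 macrophage markers 233, 415 and 345 CPM in Cd276KO tumors and 685, 471 and 358 CPM in control tumors. In HM-1 cultures 1 of the 5 markers of each of these lists had enough counts to test, so the sums can hold tumor cell RNA too. The part of neutrophils and macrophages in the Itgam and Itgb7 values was not tested.

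Itgb8, which with Itgav activates latent TGF-beta, had 15.6, 14.9 and 14.6 CPM in ID8 Cd276KO cultures and a mean of 27.2 ± 1.94 CPM in ID8 controls (−0.78, SE 0.08, adjusted p 1.22e-08). Its call was lost with all 18 libraries in 1 fit (−0.77, adjusted p 0.129). In ID8 cultures 7 of the 16 other subunits were tested, of which 5 were lower and 0 higher, beside 31.3% and 29.4% of all genes. At an unadjusted p under 0.05 and by DESeq2 or limma voom, 0 were higher. In the HM-1 cultures Itgb8, named here after its values were seen, was scarce, at 1.27 ± 0.0598 CPM in Cd276KO and 0.580 ± 0.163 CPM in control cultures (1.13, SE 0.24, adjusted p 0.0141).

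Of 23 genes for integrin activators and adhesion adaptors, the proteins that couple integrins to actin and to signalling, 5 were higher and 3 lower in HM-1 Cd276KO cultures. All 23 were tested there, and 11.6% of all genes were higher and 16.1% lower. Fermt1, an epithelial kindlin that activates integrins, had 102, 99.8 and 98.7 CPM in Cd276KO cultures and 34.8, 50.4 and 52.5 CPM in controls (1.16, SE 0.15, adjusted p 0.00206). Ptk2b, a focal adhesion kinase relative, had 15.3, 14.2 and 12.1 CPM in Cd276KO cultures and 24.2, 30.8 and 29.2 CPM in controls (−0.98, SE 0.13, adjusted p 0.00213). Parvb, a parvin that binds integrin-linked kinase, had 112, 119 and 115 CPM in Cd276KO cultures and 175, 226 and 228 CPM in controls (−0.82, SE 0.11, adjusted p 0.00257). In ID8 5 of 20 tested were higher and 8 lower, where 29.4% of all genes were higher and 31.3% lower. Tns1, a tensin that binds beta tails, had 63.9, 67.0 and 63.6 CPM in ID8 Cd276KO cultures and 31.3, 29.1 and 31.0 CPM in controls (1.17, SE 0.07, adjusted p 4.19e-13), while the talin gene Tln2 (−0.57, SE 0.09, adjusted p 1.44e-05) and Ptk2b (−0.51, SE 0.08, adjusted p 1.61e-05) were lower.

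In Cd276KO tumors 4 of the 23 were lower and 0 higher, with 4 higher at an unadjusted p under 0.05 and 2 by DESeq2 and by limma voom. Over all genes the shares were 3.18% lower and 2.20% higher. Ptk2b had 18.1, 21.9 and 19.4 CPM in Cd276KO tumors and 50.2, 51.6 and 96.6 CPM in control tumors (−1.72, SE 0.30, adjusted p 0.0340), Tns3 differed by −0.97 (SE 0.11, adjusted p 0.0206) and Parvb one of −0.96 (SE 0.14, adjusted p 0.0260). Ptk2b was thus lower in all 3 Cd276KO comparisons, and Parvb in both HM-1 ones. Of the 16 named list genes called in HM-1 cultures, 12 kept their call in all 13 alternatives, as did 11 of 16 in ID8. In tumors 0 of 11 did.

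Of the 12 surface and hemidesmosome partners, 11 were tested in HM-1 cultures, and 4 were higher and 1 lower in Cd276KO cultures. Over all genes the shares were 11.6% higher and 16.1% lower. The tetraspanin Cd151, which binds the laminin receptors of Itga3 and Itga6, had 201, 211 and 199 CPM in Cd276KO cultures and 143, 129 and 137 CPM in controls (0.62, SE 0.08, adjusted p 0.00192). Cd82, another tetraspanin, had 62.6, 64.8 and 62.8 CPM in Cd276KO cultures and 121, 115 and 118 CPM in controls (−0.86, SE 0.07, adjusted p 0.000335). In ID8 Cd276KO cultures 4 were higher and 5 lower of 12 tested, beside 29.4% and 31.3% of all genes. The urokinase receptor gene Plaur was higher (0.86, SE 0.06, adjusted p 3.99e-11), and the caveolin gene Cav1 (−0.99, SE 0.06, adjusted p 4.41e-13) and Cd47 (−0.54, SE 0.06, adjusted p 1.98e-08), which binds thrombospondin, were lower. In tumors 0 of the 12 were called by edgeR, where 5.38% of all genes were called. At an unadjusted p under 0.05 there were 3 higher and 2 lower, DESeq2 called 2 higher and 0 lower, and limma voom 2 higher and 1 lower.

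Among the 11 laminin chains, the ligands of Itga3 and Itga6, 7 were tested in HM-1 cultures, and 1 was higher and 2 lower in Cd276KO cultures. Over all genes the shares were 11.6% higher and 16.1% lower. Lama3, an epithelial laminin chain, had 10.3, 8.81 and 9.85 CPM in Cd276KO cultures and 1.64, 4.34 and 3.97 CPM in controls (1.55, SE 0.29, adjusted p 0.00976). In ID8 all 6 tested were called, 3 in each direction, where 60.7% of all genes were called. In Cd276KO tumors 3 of 11 were higher, all basement membrane chains, and 0 lower, beside 2.20% and 3.18% of all genes. Lama5 had 978, 1187 and 1036 CPM in Cd276KO tumors and 509, 707 and 524 CPM in control tumors (0.92, SE 0.16, adjusted p 0.0340), Lamc1 a log2 change of 0.73 (SE 0.14, adjusted p 0.0373) and Lamb1 one of 0.55 (SE 0.12, adjusted p 0.0489). Each of these 3 calls was lost in 5 to 7 of 13 alternatives.

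Of the 15 RGD and other matrix ligands, 4 of 11 tested were lower and 0 higher in HM-1 Cd276KO cultures, where 16.1% of all genes were lower and 11.6% higher, with 1 higher at an unadjusted p under 0.05 and 1 by DESeq2 and by limma voom, and a median log2 fold change of −0.37 beside −0.01 over all genes. Tenascin C (Tnc), a matrix protein bound by several integrins, had 6.21, 5.63 and 6.29 CPM in Cd276KO cultures and 252, 448 and 429 CPM in controls (−5.92, SE 0.26, adjusted p 2.96e-05). Osteopontin (Spp1), a ligand of Itgav receptors, had 5099.5, 4599 and 5016 CPM in Cd276KO cultures and 10019, 8709.8 and 8568 CPM in controls (−0.85, SE 0.10, adjusted p 0.00163). In ID8 10 of 13 tested were lower and 2 higher, where 31.3% of all genes were lower and 29.4% higher, with a median of −1.01. Thrombospondin 1 (Thbs1) had 58.9, 58.5 and 56.9 CPM in ID8 Cd276KO cultures and 274, 265 and 262 CPM in controls (−2.13, SE 0.06, adjusted p 6.23e-19), and fibronectin (Fn1), the ligand of Itga5, named after its call was seen, was also called lower. Fbln5 (2.30, SE 0.14, adjusted p 3.18e-12) and Npnt (1.59, SE 0.10, adjusted p 3.47e-12), both RGD proteins, were higher. In tumors Tnc was lower (−2.36, SE 0.38, adjusted p 0.0291) and Npnt higher (1.14, SE 0.24, adjusted p 0.0490), of 15 tested, beside 3.18% and 2.20% of all genes.

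Of 7 genes around latent TGF-beta, the substrate of the Itgb6 and Itgb8 receptors, 2 were higher and 2 lower of 5 tested in HM-1 Cd276KO cultures. Over all genes the shares were 11.6% higher and 16.1% lower. Tgfb1 had 125, 134 and 132 CPM in Cd276KO cultures and 186, 205 and 193 CPM in controls (−0.54, SE 0.07, adjusted p 0.00278). It was higher in ID8, with 38.5, 40.1 and 42.2 CPM in Cd276KO cultures and 23.2, 21.5 and 25.3 CPM in controls (0.86, SE 0.08, adjusted p 1.17e-09), where Tgfb2 (−1.12, SE 0.07, adjusted p 3.01e-12) and the latent binding protein gene Ltbp1 (−0.74, SE 0.06, adjusted p 1.04e-10) were lower. In tumors Ltbp1 had 43.4, 50.1 and 42.6 CPM in Cd276KO tumors and 148, 157 and 301 CPM in control tumors (−2.14, SE 0.32, adjusted p 0.0260) and was the 1 of 7 called, beside 5.38% of all genes. None of these lists was chosen independently of earlier results of these data, and their counts are descriptions.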

How the data were processed

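Total RNA of 18 samples was extracted with RNeasy kits, per the labels' protocols. The deposited table holds raw read counts per gene, 1 column per sample; Trim Galore, STAR, HTSeq and the build GRCm38 (mm10) are named in the submitters' processing notes. No source used here gives their versions, the strand setting or the annotation release. Gene names, positions and lengths came from GENCODE M21, which matched 53861 of 54752 identifiers with their version and 54723 without it. CPM is a count over the library total, times 1000000.

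Each comparison of 3 against 3 libraries was fitted on its own 6 libraries in R 4.3.3 with edgeR 4.0.16: filterByExpr, TMM factors, a robust quasi-likelihood fit and Benjamini-Hochberg adjustment over all genes tested. The 2 differences of knockout effects used 12 libraries each. The method was also run on simulated counts, drawn from 1 mean per gene and group with the fitted spread. Those hold no library that stands apart, as HM-1 control culture 1 and control tumor 3 do here. Alternatives were other size factors (RLE, upper quartile), no filter, DESeq2 1.42.0, limma 3.58.1 voom with quality weights, a replicate block, all 18 libraries in 1 fit and each library left out. No 2 libraries agreed within sampling noise (lowest chi-square per gene 1.57). Of each list, the 3 called genes with the largest change and a mean of at least 5 CPM were named per knockout comparison, and the 2 most alike genes per member. The 10 genes and the lists were chosen with earlier results of these data known. A gene that this rule names is not reported here.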

Additional observations from a re-analysis of the deposited data

Results flagged for a closer look

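The effect of the Cd276KO label differed between sample types for 5 genes, by a test of the difference itself (edgeR, adjusted over all genes tested). Between ID8 and HM-1 cultures, 40.4% of all genes tested differed in this way. The log2 difference of the effects was −1.17 for Itgb5, −0.93 for Itga5, −0.88 for Itgb3 and −0.31 for Itgb1, all lower in ID8. It was 2.47 for Itgb4, higher in ID8. The Itgb1 call was lost with no filter (adjusted p 0.0569) and with all 18 libraries in 1 fit (0.0574). Itgb5 and Itgb3 were called in opposite directions in the 2 lines. Between HM-1 tumors and HM-1 cultures, where 2.84% of all genes differed, the difference was −0.97 for Itga5, lower in tumors. That call was lost with the replicate block (adjusted p 0.0692). It was also lost in several fits with 1 library left out (0.0528 to 0.111). Cd276 was lower in HM-1 Cd276KO cultures and did not pass the test in the ID8 libraries with that label, and the part of this in the differences was not tested.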

How the results depend on the processing

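Of 1076 recomputed member values, 947 kept direction and side of the threshold, 48 gained a call, 45 lost one and 36 changed sign. Members called higher or lower were, in HM-1 cultures, 5 and 2 by limma voom (7559 genes in all, against 3452); in ID8 cultures, 2 higher with all 18 libraries in 1 fit (4260 genes, against 7849). In tumors 1 was higher by DESeq2, by voom and with all 18 libraries, and 0 lower with the replicate block; all genes called were 2270, 3177, 4001 and 0 in these fits, against 826. In control tumors against cultures 4 were higher with upper-quartile scaling, voom and all 18 libraries and 1 with no filter, 2 were lower by voom, and 9490 (voom) and 9974 (all 18) genes were called, against 6107. In Cd276KO tumors against cultures 1 was lower with RLE, upper quartile and all 18 libraries, and 4 with no filter, DESeq2 and voom. For the tumor and culture difference of effects, 1 was higher by DESeq2 and 2 by voom, and 2 (DESeq2), 3 (voom), 3 (all 18) and 0 (block) lower, with 898, 3062 and 848 genes called by DESeq2, voom and all 18, against 443. For the ID8 and HM-1 difference 2 were higher by voom. The cause was not tested.

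With 1 library left out, members called higher and lower ranged from 1 to 5 and 0 to 2 in HM-1 cultures (1725 to 7491 genes), 0 to 1 and 0 to 1 in tumors (0 to 1685 genes), 3 to 6 and 1 to 4 in Cd276KO tumors against cultures, 2 to 4 higher in control tumors against cultures, 0 to 1 and 0 to 2 for the tumor and culture difference (225 to 913 genes), and 1 to 2 higher for the ID8 and HM-1 difference.

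Sign changes were of uncalled values, and beside them stands the far end of the values with 1 library left out. In HM-1 cultures Itga5 was −0.03 (upper quartile), −0.10 (voom), −0.09 without control 1 and −0.01 without Cd276KO 2 (up to 0.11). In tumors Itgav was 0.00 by voom, 0.01 without control 3 and 0.04 without Cd276KO 1 (down to −0.12); without control 1 Itga3 was −0.06 (up to 0.33), Itgb3 0.05 (down to −0.25), Itgb4 −0.04 (up to 0.21) and Itgb6 −0.05 (up to 1.69); Itgb1 was −0.04 without control 2. Itga2 in control tumors against cultures was −0.21 by voom. For the tumor and culture difference Itga3 was 0.02 by voom and without control tumor 3 (down to −0.28); Itga6 was −0.02 and −0.07 without control culture 2 and 3, −0.08 without control tumor 3 and −0.07 without Cd276KO tumor 2 (up to 0.23); Itgb5 was 0.04 (upper quartile), 0.02 (no filter, block), 0.03 (all 18), 0.01 without any 1 control culture, 0.02 and 0.00 without Cd276KO culture 2 and 3, 0.19 and 0.16 without control tumor 1 and 2 and 0.05 without Cd276KO tumor 3 (down to −0.28). For the ID8 and HM-1 difference Itga2 was −1.23 without ID8 Cd276KO 1 (up to 2.23); Itga3 was 0.07 and Itgav 0.06 by voom, and 0.05 and 0.09 without HM-1 control 1 (down to −0.16 and −0.19). Cd276 in ID8 was 0.01 without Cd276KO 1.

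Replicate numbers are shared between groups, but same-numbered deviations did not go together in every pair of any comparison (lowest r −0.63 in tumors, 0.05 in ID8). With the block, the tumor Itga5 change had adjusted p 0.118, its tumor and culture difference 0.0692 and HM-1 Itgb5 0.0714, all 11 named list genes of the tumors lost their call, and Itgb1 in ID8 (0.0442) gained one. Itga2 in ID8 and Itgb6 in cultures have too few counts for a statement on change.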
